A study of Homo sapiens with 6 samples.

Results

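The genes of the centromere, the kinetochore and the spindle checkpoint were examined in CAL-62, an established human line of anaplastic thyroid carcinoma. They were taken by symbol, by a rule chosen with earlier results of these data known. All listed genes whose symbol starts with CENP, with SKA and a digit, or with SGO and a digit entered the set, together with the named subunits of the outer kinetochore, the checkpoint, the chromosomal passenger complex and the machinery that loads CENP-A. This gave 57 of the 11359 genes in the table. A group of 3 libraries came from CAL-62 cells made to overexpress FOXK2, a forkhead transcription factor, and the other 3 libraries came from CAL-62 cells carrying the vector. Both groups were grown in DMEM with 10% fetal bovine serum and antibiotics, and no drug is named in the labels. The sources used here do not give the promoter driving FOXK2, the vector or whether cells were cloned. The series calls each group's 3 samples biological replicates but not what set them apart, so p-values reflect only the spread between these libraries, which may be technical.

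FOXK2 itself was at 30.8, 36.2 and 30.1 FPKM in the FOXK2 libraries, against 16.3, 12.5 and 18.8 FPKM in the vector libraries. FPKM is a level per length of transcript and per unit of sequenced fragments. All FOXK2 libraries stood above all vector libraries (limma log2 fold change 1.00, SE 0.17, adjusted p = 0.00525). Transgene and endogenous RNA are not told apart in these values. Of 8 thyroid lineage markers, 3 were listed, with summed levels of 132 to 164 FPKM in FOXK2 libraries and 112 to 178 FPKM in vector libraries. PAX8, which encodes a thyroid transcription factor, averaged 102 ± 16.7 FPKM in FOXK2 cells and 121 ± 32.3 FPKM in vector cells (SD, n = 3 each). HHEX, which encodes another thyroid transcription factor, averaged 49.5 ± 5.06 FPKM in FOXK2 cells and 20.0 ± 1.99 FPKM in vector cells, without overlap, and was called higher (1.26 on the log2 scale, limma adjusted p = 0.00099). FOXE1, the remaining listed marker, was below the level tested, at 0.289 ± 0.0824 FPKM in FOXK2 cells and 0.838 ± 0.0157 FPKM in vector cells, with no overlap. TG, TSHR, SLC5A5 and NKX2-1 were not among the listed transcripts. Of 5 markers of leukocytes, endothelium and fibroblasts, COL1A1 and COL1A2 were listed, and their summed level was 20.1 to 21.6 FPKM in FOXK2 libraries and 30.3 to 39.6 FPKM in vector libraries. Both were called lower, as were 18.7% of all tested genes. COL1A2 stood at -1.22 and COL1A1 at -0.59 on the log2 scale (limma adjusted p = 0.00178 and 0.0159). With a correction for GC content and transcript length, described below, COL1A2 kept its call (-1.12) and COL1A1 did not (-0.29). The leukocyte and endothelial markers PTPRC, PECAM1 and CDH5 were not among the listed transcripts. The part of these levels in the results was not tested.

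The centromere is the stretch of chromatin, marked by the histone H3 variant CENP-A, on which the kinetochore is built. A set of proteins that stays bound through the cell cycle, the constitutive centromere-associated network, links this chromatin to the outer kinetochore, where the NDC80 complex grips microtubules. Unattached kinetochores recruit the spindle checkpoint kinases and MAD proteins, which hold the anaphase-promoting complex inactive until every chromosome is attached. Most of the outer kinetochore and checkpoint genes are transcribed in G2 and mitosis in human cells. Their promoters are known for a short element called the cell cycle genes homology region, or CHR, which is bound by the DREAM and MYB-MuvB complexes, often beside CCAAT boxes bound by NF-Y.

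The promoter letters that bear on this are shown for the 4 members with the largest rise in FOXK2 cells and, for contrast, for CENPB, the member with the largest fall. The pick of the 4 also required TTTGAA or TTTAAA in the bases shown, so the presence of these letters there was fixed by the rule. Each sequence is the 120 bases before the RefSeq start of the gene, read 5′ to 3′ on the gene's strand in GRCh38.p14. Capitals mark TTTAAA or TTTGAA, the letters of the CHR, and CCAAT or its reverse complement ATTGG. The windows lie at chr4:103198344-103198463 (minus strand) for CENPE, chr2:200526087-200526206 (plus strand) for SGO2, chr1:214603075-214603194 (plus strand) for CENPF, chr15:40160949-40161068 (plus strand) for BUB1B and chr20:3786741-3786860 (minus strand) for CENPB.
CENPE: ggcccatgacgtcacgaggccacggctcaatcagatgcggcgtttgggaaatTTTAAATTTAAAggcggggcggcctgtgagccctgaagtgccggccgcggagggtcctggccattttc
SGO2: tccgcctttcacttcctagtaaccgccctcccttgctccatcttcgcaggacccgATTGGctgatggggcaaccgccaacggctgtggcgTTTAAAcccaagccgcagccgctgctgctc
CENPF: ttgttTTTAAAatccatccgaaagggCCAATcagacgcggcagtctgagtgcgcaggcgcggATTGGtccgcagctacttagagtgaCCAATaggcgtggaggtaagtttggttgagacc
BUB1B: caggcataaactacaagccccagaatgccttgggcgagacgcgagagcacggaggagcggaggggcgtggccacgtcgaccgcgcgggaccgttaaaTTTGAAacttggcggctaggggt
CENPB: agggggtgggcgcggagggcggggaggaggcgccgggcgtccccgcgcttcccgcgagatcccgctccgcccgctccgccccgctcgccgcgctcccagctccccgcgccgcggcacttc
CENPE held TTTAAA at adjoining places, starting 68 and 62 bases before the start. SGO2 has 2 RefSeq starts. From the downstream start, which was used for the sequence shown, TTTAAA lay 30 bases and ATTGG 65 bases before it. From the upstream start, which was used for the counts that follow, the same TTTAAA lay 35 bases after it, outside the bases shown. BUB1B held TTTGAA 23 bases before the start and neither orientation of CCAAT, CENPF held TTTAAA 115 bases before the start with CCAAT or ATTGG at 94, 58 and 33 bases, and CENPB held none of these letters.

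A RefSeq window of 300 bases, from 250 before the start to 50 after it, was found for 46 of the 57 members. On either strand, TTTGAA occurred in the window of 19 of the 46 members, against 15.2% of all 35116 windows in the table and 8.80% of the 8251 other tested genes with a window. CCAAT occurred in 28 members, against 34.6% of all windows and 36.9% of the other tested genes. TTTAAA, which reads the same on both strands, occurred in 4 members, in 12.2% of all windows and in 6.86% of the other tested genes. The forkhead letters GTAAACA occurred in 1 member, CENPQ, in 3.42% of all windows and in 2.08% of the other tested genes. From 100 bases before the start to 50 after it, TTTGAA or TTTAAA occurred in 18 of the 46 members. Among the members called higher in FOXK2 cells these letters occurred in 17 of 34, and among the others in 1 of 12. The others include CENPC and CENPVL3, which were too low to be tested, and the 1 with the letters was CENPC. Outside the set, the letters occurred in 10.4% of the 1409 other genes called higher, in 5.71% of the 8251 other tested genes and in 11.2% of all windows. These counts describe letters in a window and do not show a bound site.

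Most genes of the set were higher in FOXK2 cells. Of the 57 genes, 55 passed the filter, a 6-library mean of 1 FPKM or more. A limma fit over all 10305 tested genes, with a Benjamini-Hochberg adjusted p under 0.05 as the threshold, called 41 of the 55 higher and 2 lower, and made no call for 12. The same fit called 36.3% of all tested genes, 17.6% higher and 18.7% lower, so the members' share of rises stood well above the background and their share of falls below it. Because the set was chosen with earlier results of these data known, this difference is a description, and part of it may come from that choice. The median log2 fold change, a difference of group means on the log2(FPKM + 1) scale, was 0.93 for the members and 0.015 for all tested genes. A rise of at least 2-fold was called for 26 members, against 4.44% of all tested genes. All FOXK2 libraries lay above all vector libraries for 44 members (25.6% of all tested genes), and below them for 2 (26.4%). The summed level of the 57 genes was 1563, 1540 and 1504 FPKM in the FOXK2 libraries, against 933, 896 and 890 FPKM in the vector libraries. In bulk RNA, more cells in G2 or mitosis and more of these RNAs per cell cannot be told apart. The 4 cycling markers MKI67, TOP2A, CCNB1 and PCNA, which are not members, were also all called higher (log2 fold changes of 2.44, 2.21, 1.50 and 0.71), with a summed level of 611 to 714 FPKM in FOXK2 libraries and 254 to 303 FPKM in vector libraries. Their part in the members' rise was not tested.

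**Figure D1:**
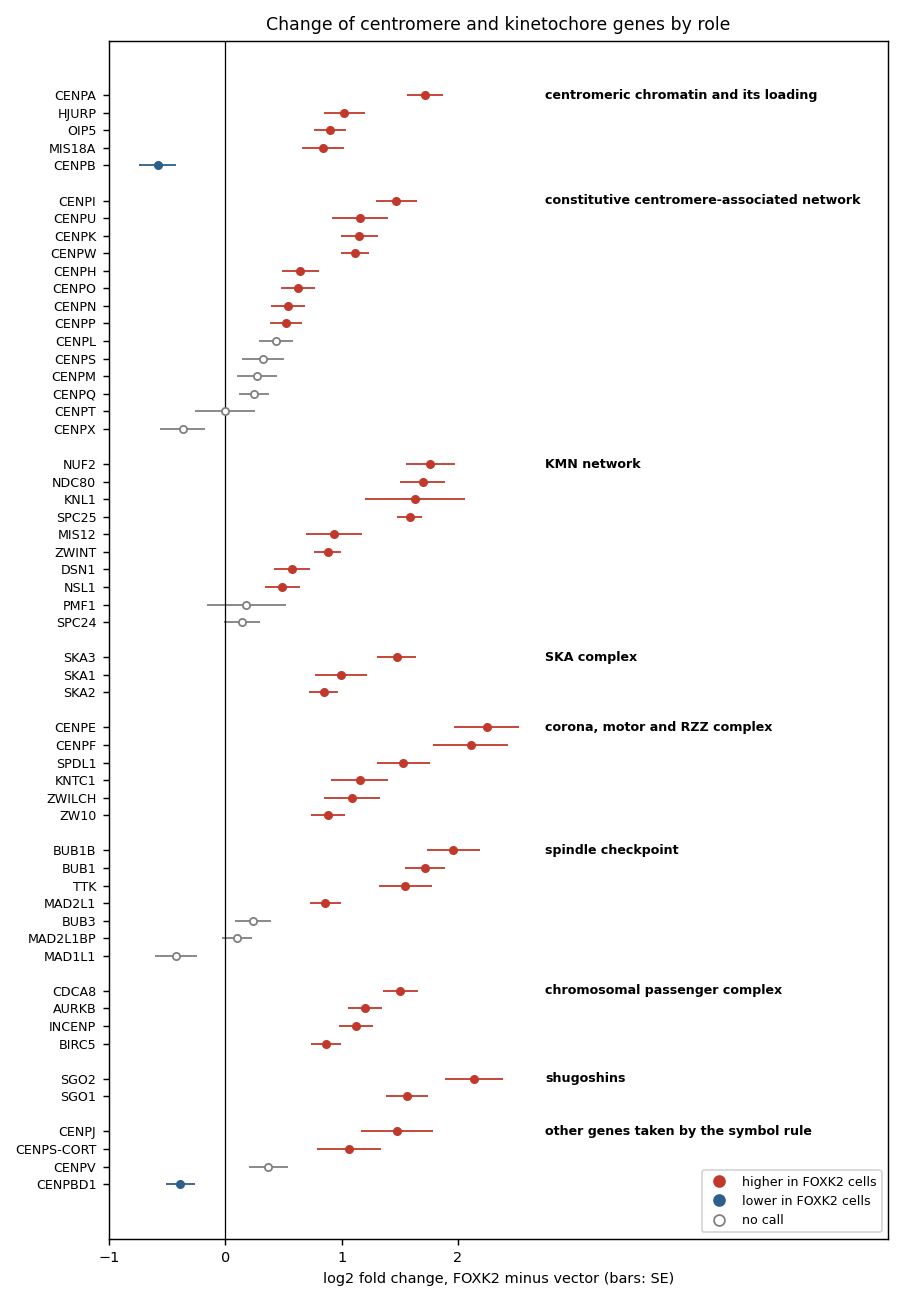
Log2 fold change (FOXK2 minus vector, horizontal axis) of the 55 tested members, grouped by role, with bars for the SE of the limma fit. Red points are the 41 members called higher, blue points the 2 called lower and open grey points the 12 with no call, and the corona and shugoshin groups hold the 3 largest rises, those of CENPE, SGO2 and CENPF.

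In the centromeric chromatin group, the histone variant CENPA and the 3 genes that load it rose, and CENPB fell. Over all tested genes, 17.6% were called higher and 18.7% lower. CENPA was at 8.13, 8.56 and 6.75 FPKM in FOXK2 libraries, against 1.65, 1.82 and 1.56 FPKM in vector libraries. The groups were far apart, with means of 7.81 ± 0.944 FPKM in FOXK2 cells and 1.67 ± 0.130 FPKM in vector cells (limma log2 fold change 1.72, SE 0.15, adjusted p = 0.000527). HJURP, the chaperone that deposits CENP-A, averaged 32.8 ± 7.73 FPKM in FOXK2 cells and 15.4 ± 0.682 FPKM in vector cells (log2 fold change 1.02, limma adjusted p = 0.00522). The loading factors OIP5 (Mis18 beta) and MIS18A (Mis18 alpha) rose with log2 fold changes of 0.90 and 0.84. CENPB, which binds a short motif in alpha satellite DNA, was at 77.8, 118 and 96.0 FPKM in FOXK2 libraries, against 143, 140 and 149 FPKM in vector libraries. All of its FOXK2 values lay below all of its vector values (limma log2 fold change -0.58, SE 0.16, adjusted p = 0.0258), but it was the member of highest GC content, and the fall was no longer called after a correction that removes, library by library, a smooth trend on GC content and transcript length (-0.10, limma adjusted p = 0.361). Both falls of the set were sensitive to single libraries. Neither CENPB nor CENPBD1, described further on, was called lower when FOXK2 replicate 1 or 3 or any one vector library was left out (log2 fold changes between -0.60 and -0.34, with limma adjusted p between 0.0526 and 0.132). Without FOXK2 replicate 2, both were called together with CENPX (-0.54, limma adjusted p = 0.0430) and MAD1L1 (-0.58, limma adjusted p = 0.0254).

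The constitutive centromere-associated network moved unevenly. Of its 15 listed genes 14 were tested, 8 were called higher, none was called lower and the median log2 fold change was 0.53. The shares of all tested genes were 17.6% higher and 18.7% lower. CENPW, a histone-fold subunit, was the most abundant, at 131, 140 and 116 FPKM in FOXK2 libraries, against 59.5, 55.3 and 62.2 FPKM in vector libraries. No library of one group came near the other (limma log2 fold change 1.12, SE 0.12, adjusted p = 0.000967). CENPI, CENPK and CENPU, which belong to the CENP-HIKM and CENP-OPQU assemblies, rose with log2 fold changes of 1.47, 1.15 and 1.16. CENPO, CENPH, CENPN and CENPP rose by less (log2 fold changes 0.63, 0.64, 0.54 and 0.52, limma adjusted p from 0.0168 to 0.0251). CENPH and CENPP lost their call with the correction for GC content and length (0.45 and 0.25, limma adjusted p = 0.0828 and 0.182). Each of these 4 lost its call without FOXK2 replicate 3, vector replicate 2 or vector replicate 3, CENPN also without FOXK2 replicate 1 and CENPP also without vector replicate 1 (log2 fold changes between 0.42 and 0.69, with limma adjusted p between 0.0502 and 0.0888).

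CENPT, the histone-fold partner of CENPW that reaches out to the NDC80 complex, showed no such difference. It was at 12.7, 9.13 and 9.73 FPKM in FOXK2 libraries, against 7.21, 15.2 and 10.3 FPKM in vector libraries. The groups overlapped, and the 95% interval of the log2 fold change ran from -0.60 to 0.59 (limma adjusted p = 0.989). CENPM, a subunit of CENP-HIKM, was at 37.5, 48.8 and 31.8 FPKM in FOXK2 libraries, against 34.8, 29.6 and 31.6 FPKM in vector libraries, with an interval from -0.13 to 0.67 (limma adjusted p = 0.243). With the correction for GC content and length it was called higher (0.92, limma adjusted p = 0.00547). The histone-fold subunit CENPX stood at -0.37 on the log2 scale (interval -0.83 to 0.09, limma adjusted p = 0.176), with the opposite sign and a call under that correction (0.33, limma adjusted p = 0.0407). CENPL (0.44, limma adjusted p = 0.0509), CENPS (0.32, limma adjusted p = 0.186) and CENPQ (0.25, limma adjusted p = 0.162) were not called. CENPC, which binds CENP-A nucleosomes directly, was listed at 0.866, 1.04 and 0.746 FPKM in FOXK2 libraries and 0.739, 0.449 and 0.473 FPKM in vector libraries, too low to be tested.

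The KMN network, the core microtubule-binding part of the outer kinetochore, is made of KNL1, the MIS12 complex and the NDC80 complex. Of its 10 genes 8 were called higher and none lower, against 17.6% and 18.7% of all tested genes. The median log2 fold change was 0.91. Under the GC and length correction 4 of the 10 were called higher, against 15.9% of all tested genes. SPC25, an NDC80 complex subunit that docks onto the inner kinetochore, was at 52.0, 51.0 and 50.1 FPKM in FOXK2 libraries, against 16.0, 16.0 and 17.0 FPKM in vector libraries. Its replicates lay close together within each group, and it had the smallest p of all members (limma log2 fold change 1.58, SE 0.11, adjusted p = 0.000182). NUF2, which forms the microtubule-binding end with NDC80, was at 19.1, 14.2 and 19.4 FPKM in FOXK2 libraries, against 5.69, 4.59 and 3.27 FPKM in vector libraries (limma log2 fold change 1.76, SE 0.21, adjusted p = 0.00137). NDC80 averaged 33.8 ± 6.58 FPKM in FOXK2 cells and 9.67 ± 1.63 FPKM in vector cells (log2 fold change 1.70, limma adjusted p = 0.00125). SPC24, the obligate partner of SPC25, was at 31.5, 36.7 and 35.0 FPKM in FOXK2 libraries, against 37.3, 29.6 and 26.9 FPKM in vector libraries. Its groups overlapped, with a 95% interval of the log2 fold change from -0.21 to 0.50 (limma adjusted p = 0.479).

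KNL1, the scaffold that recruits the BUB proteins, was at 17.8, 8.05 and 4.43 FPKM in FOXK2 libraries, against 2.51, 2.87 and 1.28 FPKM in vector libraries. The FOXK2 libraries differed widely among themselves but all lay above the vector libraries (limma log2 fold change 1.63, SE 0.43, adjusted p = 0.0233). ZWINT, which binds KNL1, rose with a log2 fold change of 0.88 and a limma adjusted p of 0.00197. In the MIS12 complex, the genes MIS12, DSN1 and NSL1 rose with log2 fold changes of 0.93, 0.57 and 0.49 (limma adjusted p from 0.0226 to 0.0402). PMF1, the remaining subunit, was at 7.35, 14.0 and 18.6 FPKM in FOXK2 libraries, against 7.60, 14.2 and 11.9 FPKM in vector libraries. PMF1 varied as much within groups as between them (interval -0.60 to 0.96, limma adjusted p = 0.69). The calls of KNL1, MIS12, DSN1 and NSL1 were lost with the GC and length correction (log2 fold changes 1.09, 0.56, 0.34 and 0.20, limma adjusted p from 0.0677 to 0.20). They also depended on single libraries: KNL1 lost its call without vector replicate 1 or 3, MIS12 without FOXK2 replicate 1 or vector replicate 2 or 3, DSN1 without any library but FOXK2 replicate 2 and vector replicate 1, and NSL1 without any library but FOXK2 replicate 2 (log2 fold changes between 0.38 and 1.71, with limma adjusted p between 0.0517 and 0.117).

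The SKA complex, which keeps kinetochores attached to shortening microtubules, rose in all 3 subunits, where 17.6% of all tested genes were called higher. SKA3 was at 14.2, 10.9 and 11.7 FPKM in FOXK2 libraries, against 4.42, 3.73 and 3.21 FPKM in vector libraries (limma log2 fold change 1.47, SE 0.17, adjusted p = 0.00125). SKA1 was at 10.6, 8.79 and 9.50 FPKM in FOXK2 libraries, against 4.47, 2.90 and 6.05 FPKM in vector libraries (limma log2 fold change 1.00, SE 0.23, adjusted p = 0.0142). SKA2, the most abundant subunit, was at 97.5, 77.1 and 91.6 FPKM in FOXK2 libraries, against 45.7, 50.7 and 49.8 FPKM in vector libraries (limma log2 fold change 0.85, SE 0.13, adjusted p = 0.00338). In none of the 3 did the groups overlap, where 25.6% of all tested genes had all FOXK2 libraries above all vector libraries. The spread relative to the mean was widest in the vector values of SKA1. SKA1 lost its call when the GC and length correction was combined with the replicate number as a block (0.79, limma adjusted p = 0.0584).

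The corona, the outermost layer that forms on unattached kinetochores, held the member with the largest rise, CENPE. All 6 of its genes were called higher, against 17.6% of all tested genes, with a median log2 fold change of 1.34. CENPE, a plus-end-directed kinesin that carries chromosomes to the spindle equator, was at 23.1, 12.1 and 22.1 FPKM in FOXK2 libraries, against 3.19, 4.09 and 2.19 FPKM in vector libraries. The lowest FOXK2 value was still well above the highest vector value (limma log2 fold change 2.25, SE 0.28, adjusted p = 0.00164). CENPF, a large coiled-coil protein of the corona, was at 57.7, 24.8 and 41.5 FPKM in FOXK2 libraries, against 9.42, 10.4 and 5.74 FPKM in vector libraries. Here too FOXK2 replicate 2 was the lowest of its group and lay above every vector library (limma log2 fold change 2.11, SE 0.32, adjusted p = 0.00344).

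The ROD, ZW10 and ZWILCH proteins form the RZZ complex, which builds the corona and, with Spindly (SPDL1), brings dynein to it. SPDL1 rose to 25.8 ± 6.34 FPKM in FOXK2 cells, against 8.20 ± 1.88 FPKM in vector cells (log2 fold change 1.53, limma adjusted p = 0.00317). ZWILCH was at 13.8, 7.76 and 13.0 FPKM in FOXK2 libraries, against 4.87, 5.78 and 3.69 FPKM in vector libraries (limma log2 fold change 1.09, SE 0.24, adjusted p = 0.0129). KNTC1, which encodes ROD, and ZW10 rose with log2 fold changes of 1.16 and 0.88 (limma adjusted p = 0.0114 and 0.0050). All 3 RZZ genes had FOXK2 libraries wholly above the vector libraries, as had 25.6% of all tested genes. With the GC and length correction their rises were smaller but still called (0.61 for ZWILCH, 0.65 for KNTC1 and 0.53 for ZW10). When the replicate number was added to that corrected fit as a block, ZWILCH lost its call (0.61, limma adjusted p = 0.0611).

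Of the 7 spindle checkpoint genes, BUB1, BUB1B, TTK and MAD2L1 rose, none fell and 3 were not called. Among all tested genes, 17.6% were called higher and 18.7% lower. BUB1, a kinase that marks centromeric chromatin and recruits other checkpoint proteins, was at 21.9, 17.3 and 21.7 FPKM in FOXK2 libraries, against 6.73, 5.12 and 4.70 FPKM in vector libraries (limma log2 fold change 1.71, SE 0.17, adjusted p = 0.00081). BUB1B, which encodes BUBR1, a subunit of the inhibitor of the anaphase-promoting complex, was at 33.5, 23.5 and 24.1 FPKM in FOXK2 libraries, against 7.55, 6.99 and 4.26 FPKM in vector libraries (limma log2 fold change 1.96, SE 0.23, adjusted p = 0.00133). In both genes the lowest FOXK2 library stood far above the highest vector library, where 25.6% of all tested genes had groups apart in this direction. TTK, the kinase that starts checkpoint signalling, rose with a log2 fold change of 1.55 and a limma adjusted p of 0.00325. MAD2L1, which encodes MAD2, averaged 23.0 ± 0.642 FPKM in FOXK2 cells and 12.3 ± 1.41 FPKM in vector cells (log2 fold change 0.86, limma adjusted p = 0.00377), a call that was lost with the GC and length correction (0.34, limma adjusted p = 0.213).

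MAD1L1, which encodes the MAD1 platform for MAD2 and had the highest mean of the checkpoint genes over the 6 libraries together, was at 26.8, 42.5 and 34.2 FPKM in FOXK2 libraries, against 52.4, 42.0 and 43.8 FPKM in vector libraries. Its groups overlapped through FOXK2 replicate 2 and vector replicate 2 (log2 fold change -0.42, limma adjusted p = 0.104), and under the GC and length correction it stood at 0.019 (limma adjusted p = 0.911). Without FOXK2 replicate 2 it was called lower (-0.58, limma adjusted p = 0.0254). BUB3, the WD-repeat partner of BUB1 and BUBR1, averaged 40.2 ± 3.08 FPKM in FOXK2 cells and 34.2 ± 6.40 FPKM in vector cells (interval of the log2 fold change -0.12 to 0.60, limma adjusted p = 0.254). MAD2L1BP, which encodes the p31comet protein that silences the checkpoint, was at 19.9, 23.6 and 24.1 FPKM in FOXK2 libraries, against 20.4, 20.2 and 21.9 FPKM in vector libraries. The groups overlapped, with a 95% interval from -0.20 to 0.40 (limma adjusted p = 0.55), and the gene was called higher with the correction (0.31, limma adjusted p = 0.0361).

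All 4 genes of the chromosomal passenger complex, which corrects faulty attachments, rose, against 17.6% of all tested genes. CDCA8, which encodes the targeting subunit Borealin, was at 39.5, 49.8 and 41.8 FPKM in FOXK2 libraries, against 13.0, 14.4 and 16.8 FPKM in vector libraries (limma log2 fold change 1.50, SE 0.15, adjusted p = 0.000777). AURKB, the kinase of the complex, was at 80.7, 110 and 92.4 FPKM in FOXK2 libraries, against 36.8, 40.1 and 44.0 FPKM in vector libraries (limma log2 fold change 1.20, SE 0.15, adjusted p = 0.00155). BIRC5, which encodes Survivin, was at 38.7, 49.7 and 42.7 FPKM in FOXK2 libraries, against 23.1, 22.9 and 24.3 FPKM in vector libraries (limma log2 fold change 0.86, SE 0.13, adjusted p = 0.00345). INCENP, the scaffold, rose with a log2 fold change of 1.13 and a limma adjusted p of 0.00191. In CDCA8, AURKB, INCENP and BIRC5 all FOXK2 libraries lay above all vector libraries, as for 25.6% of all tested genes, and FOXK2 replicate 2 was the highest FOXK2 library.

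Both shugoshins, which protect centromeric cohesin, rose, where 17.6% of all tested genes did. SGO2 was at 23.5, 12.0 and 17.9 FPKM in FOXK2 libraries, against 3.52, 3.56 and 2.41 FPKM in vector libraries (limma log2 fold change 2.14, SE 0.25, adjusted p = 0.00131). SGO1 was at 9.75, 7.30 and 10.8 FPKM in FOXK2 libraries, against 2.81, 2.33 and 2.23 FPKM in vector libraries (limma log2 fold change 1.56, SE 0.18, adjusted p = 0.00128). In both, FOXK2 replicate 2 was the lowest FOXK2 library and was far above all vector libraries. The groups were apart in this direction for 25.6% of all tested genes.

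The symbol rule took 5 further genes. CENPJ encodes CPAP, a protein of centriole assembly rather than of the kinetochore, and was at 14.3, 6.03 and 11.8 FPKM in FOXK2 libraries, against 3.97, 3.13 and 2.09 FPKM in vector libraries (limma log2 fold change 1.48, SE 0.31, adjusted p = 0.0109). CENPS-CORT, a read-through gene, rose with a log2 fold change of 1.06 and a limma adjusted p of 0.0222 and lost its call without FOXK2 replicate 1 (1.03, limma adjusted p = 0.0630). It shares sequence with CENPS, so the division of signal between the pair is uncertain. CENPV was at 22.2, 32.8 and 23.7 FPKM in FOXK2 libraries, against 18.6, 19.6 and 21.3 FPKM in vector libraries. Its groups did not overlap, but it was not called (interval of the log2 fold change -0.02 to 0.76, limma adjusted p = 0.119) except under the GC and length correction (0.98, limma adjusted p = 0.000785). CENPBD1, named for a CENP-B-like DNA-binding domain, was at 10.3, 11.4 and 11.3 FPKM in FOXK2 libraries, against 14.2, 14.6 and 15.3 FPKM in vector libraries. It was the other gene called lower (limma log2 fold change -0.39, SE 0.13, adjusted p = 0.0458), with no call under the correction (-0.24, limma adjusted p = 0.0711) or, as given for CENPB, without any one library other than FOXK2 replicate 2 (limma adjusted p from 0.0915 to 0.132). CENPVL3 was listed at 0 in all FOXK2 libraries and at 0.445, 0.767 and 0.483 FPKM in vector libraries, and was not tested.

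**Figure D2:**
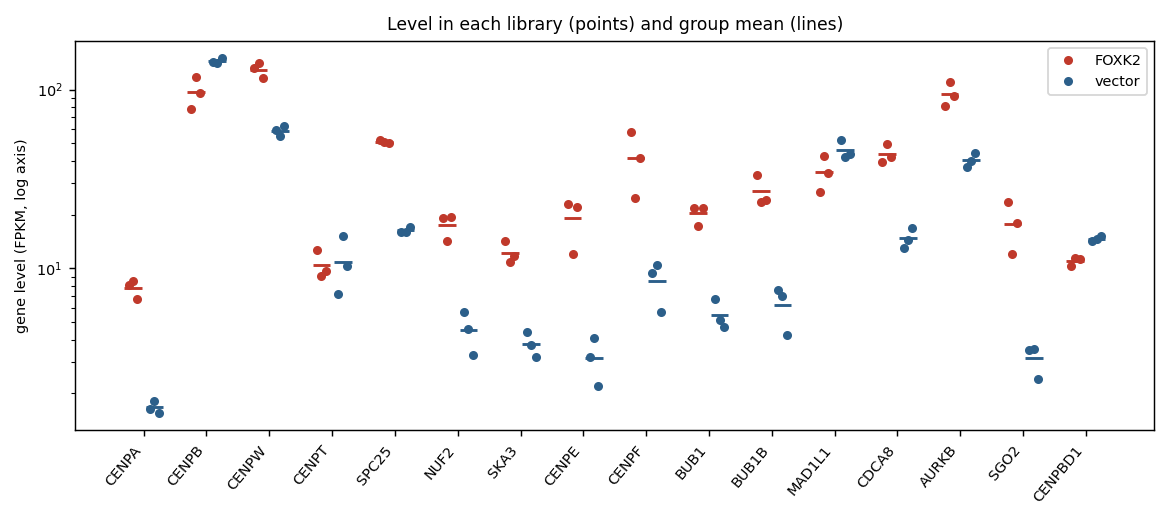
Level of 16 members (FPKM, log axis) in each FOXK2 library (red points) and each vector library (blue points), with lines at the group means. The groups are far apart for CENPA, SPC25, NUF2, CENPE, CENPF, BUB1B and SGO2, overlap for CENPT and MAD1L1, and lie lower in FOXK2 libraries for CENPB and CENPBD1.

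Because FPKM is a level per length, subunits of one complex can be set beside each other. The complexes were grouped after the values had been seen, and these ratios are a description with no test. In the NDC80 complex, the most abundant subunit stood at 2.58 to 3.58 times the least abundant in FOXK2 libraries, against 6.45 to 8.22 times in vector libraries. SPC25 was the highest subunit in every FOXK2 library, whereas SPC24 was the highest in every vector library. SPC24 made up 22.3, 28.6 and 24.9% of the summed level of the complex in FOXK2 libraries, against 53.5, 48.8 and 48.9% in vector libraries. The CENP-HIKM group had a like pattern, with ratios of 2.85 to 3.54 in FOXK2 libraries and 8.04 to 9.60 in vector libraries, CENPI being the least abundant subunit in all 6. The passenger complex had ratios of 2.09 to 2.21 in FOXK2 libraries and 2.62 to 2.82 in vector libraries, and the SKA complex 8.77 to 9.65 in FOXK2 libraries and 10.3 to 17.5 in vector libraries. The CENP-TWSX group went the other way, with 14.6 to 20.6 in FOXK2 libraries and 8.50 to 11.4 in vector libraries, and of its subunits CENPW rose while CENPS, CENPT and CENPX were not called. The ratios of the RZZ, MIS12, CENP-OPQU, CENP-LN and CENP-A loading groups overlapped between FOXK2 and vector libraries. These ratios are not corrected for GC content. With the correction the log2 fold changes were 1.68 for AURKB and 1.55 for CDCA8, where they were 1.20 and 1.50 without it, so that the order of these passenger subunits was turned. In CENP-HIKM they were 0.92 for CENPM and 1.36 for CENPI, against 0.27 and 1.47 without it, and in the NDC80 complex 0.41 for SPC24 and 1.35 for SPC25, against 0.14 and 1.58.

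**Figure D3:**
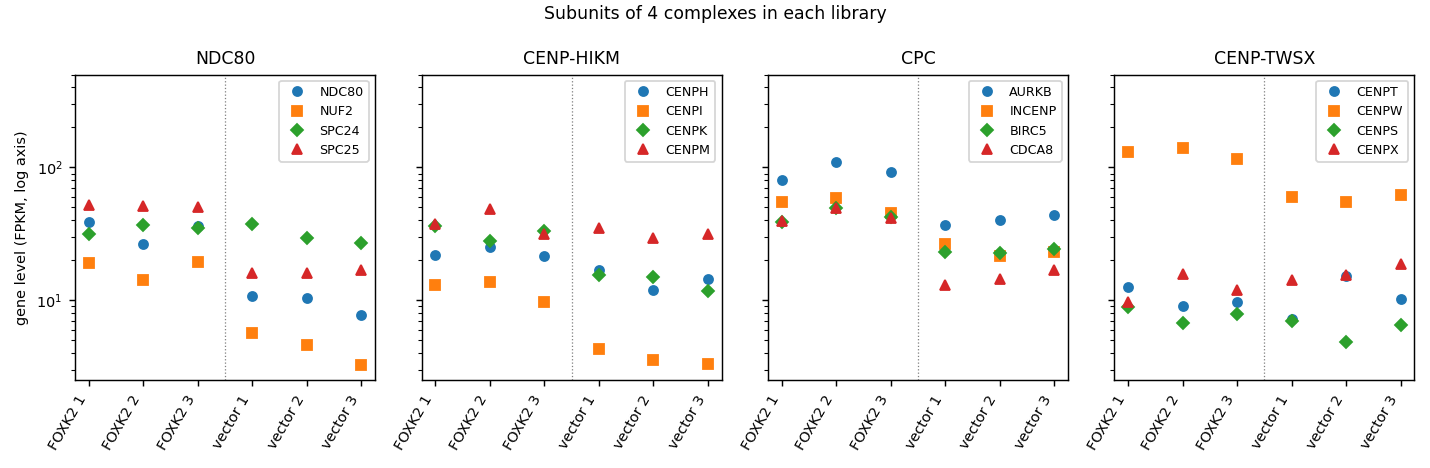
Level of each subunit (FPKM, log axis) of the NDC80, CENP-HIKM, chromosomal passenger (CPC) and CENP-TWSX groups in the 3 FOXK2 libraries (left of the dotted line) and the 3 vector libraries (right). In the NDC80 panel the subunits lie within 3.58-fold of each other in FOXK2 libraries and 6.45- to 8.22-fold apart in vector libraries.

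The members were also examined transcript by transcript. They had 177 listed transcripts, of which 132 were tested and 33 were called higher, against 3.03% of all 21273 tested transcripts, while none was called lower, against 4.36%. The number called depended strongly on single libraries, for the members as for all tested transcripts. It was 8 without FOXK2 replicate 1, 5 without FOXK2 replicate 3, 7, 2 and 9 without vector replicates 1, 2 and 3, and 30 without FOXK2 replicate 2. The share of all tested transcripts called higher was, in the same order, 0.644, 0.494, 0.733, 0.306, 0.522 and 4.26%. CENPW, the most abundant member with a divided result, had its signal on different transcripts in different libraries. CENPW-201 (ENST00000368325) was at 95.5, 101 and 36.0 FPKM in FOXK2 libraries, against 11.7, 15.6 and 14.0 FPKM in vector libraries (log2 fold change 2.28, limma adjusted p = 0.0317). CENPW-203 (ENST00000368328) was at 31.6, 35.7 and 77.0 FPKM in FOXK2 libraries, against 44.9, 39.7 and 45.6 FPKM in vector libraries (log2 fold change 0.034, limma adjusted p = 0.962). FOXK2 replicate 3 thus had less CENPW-201 and more CENPW-203 than the other FOXK2 libraries, while the gene sum stayed between 116 and 140 FPKM in all 3. When each gene was represented by its most abundant transcript, CENPW was not called (0.034, limma adjusted p = 0.95), and neither were SKA1 (0.73, limma adjusted p = 0.272), CENPN (0.42, limma adjusted p = 0.116), NSL1 (0.35, limma adjusted p = 0.107), DSN1 (0.31, limma adjusted p = 0.457) and CENPBD1 (-0.39, limma adjusted p = 0.0629).

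In AURKB, 3 of 7 tested transcripts were called higher, led by AURKB-214 (ENST00000585124), which averaged 53.5 ± 8.87 FPKM in FOXK2 cells and 21.5 ± 1.58 FPKM in vector cells (log2 fold change 1.27, limma adjusted p = 0.0148). In INCENP, INCENP-202 was called (log2 fold change 1.23, limma adjusted p = 0.0162) and INCENP-201 was not (0.83, limma adjusted p = 0.151). In BIRC5, BIRC5-202 and BIRC5-201 were called (0.73 and 1.13, limma adjusted p = 0.0475 and 0.0441), in SKA2, SKA2-201 and SKA2-205 (0.88 and 1.38, limma adjusted p = 0.0288 and 0.0249), and in ZWINT, ZWINT-203 (0.95, limma adjusted p = 0.0290). The most abundant SKA2 transcript, SKA2-206, averaged 40.4 ± 6.28 FPKM in FOXK2 cells and 23.9 ± 3.76 FPKM in vector cells and missed the threshold (0.73, limma adjusted p = 0.0638). The division of reads among transcripts of one gene is an estimate by the authors' software, and its error is not in the table.

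**Figure D4:**
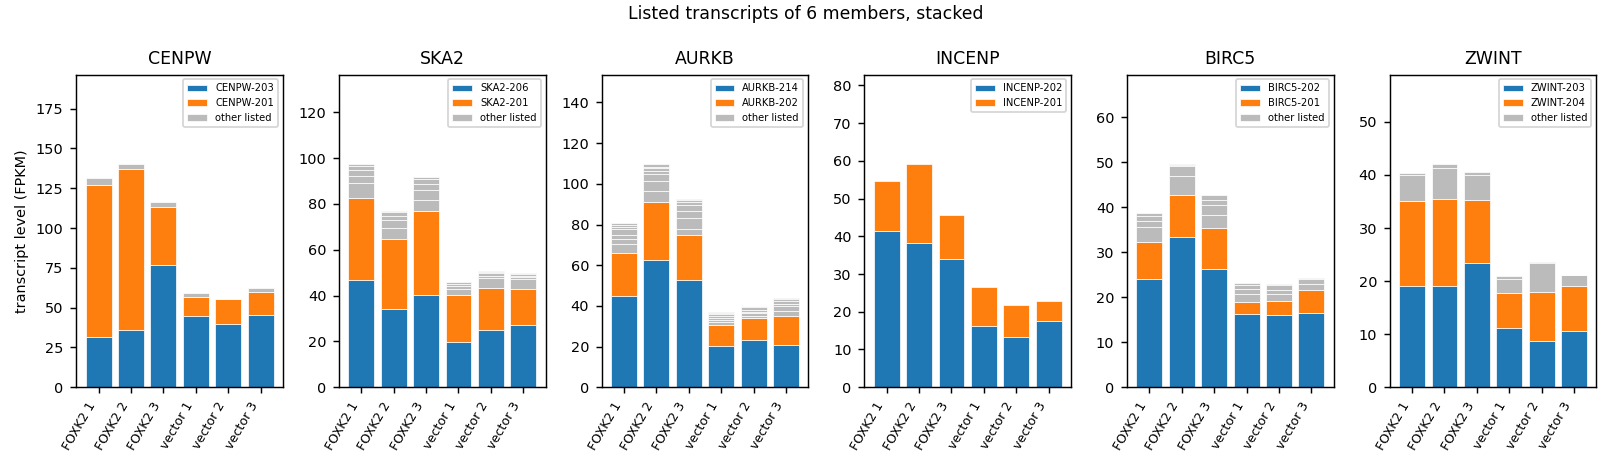
Level of the listed transcripts (FPKM, stacked bars from 0) of CENPW, SKA2, AURKB, INCENP, BIRC5 and ZWINT in the 3 FOXK2 libraries and the 3 vector libraries, with the most abundant 2 transcripts coloured and the others grey. The height of the CENPW bars is similar in the FOXK2 libraries, but CENPW-203 takes the larger part in FOXK2 replicate 3.

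The size of a member's change moved with the GC content of its transcripts, as it did across the whole table. Spearman's rho between log2 fold change and GC content was -0.60 over the 55 tested members and -0.59 over all 10305 tested genes, which share the same 6 libraries and are not independent replicates. The median GC content was 43.4% for the members and 49.4% for all tested genes. Below 45% GC, 28 of 31 members rose, where 33.1% of the 3456 genes in that range did. Between 45 and 55%, 11 of 15 members rose, against 15.5% of 3462 genes. Above 55%, 2 of 9 members, AURKB and INCENP, rose, against 3.96% of 3387 genes, and CENPB fell. FOXK2 replicate 2 was the lowest FOXK2 library for 27 members of median GC content 41.4% and the highest for 22 members of median GC content 52.1%. Under the GC and length correction 38 members were called higher, where 15.9% of all tested genes were, and none was called lower, where 14.3% were. Of the 41 members called higher without the correction, 34 were also called with it. Over all tested genes, 1068 of the 1812 called higher without the correction were also called higher with it. The median log2 fold change of the members with the correction was 0.85. The largest rises were smaller with the correction (1.71 for CENPE, 1.65 for SGO2, 1.59 for CENPF and 1.55 for BUB1B), while those of AURKB (1.68) and INCENP (1.44) were larger.

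**Figure D5:**
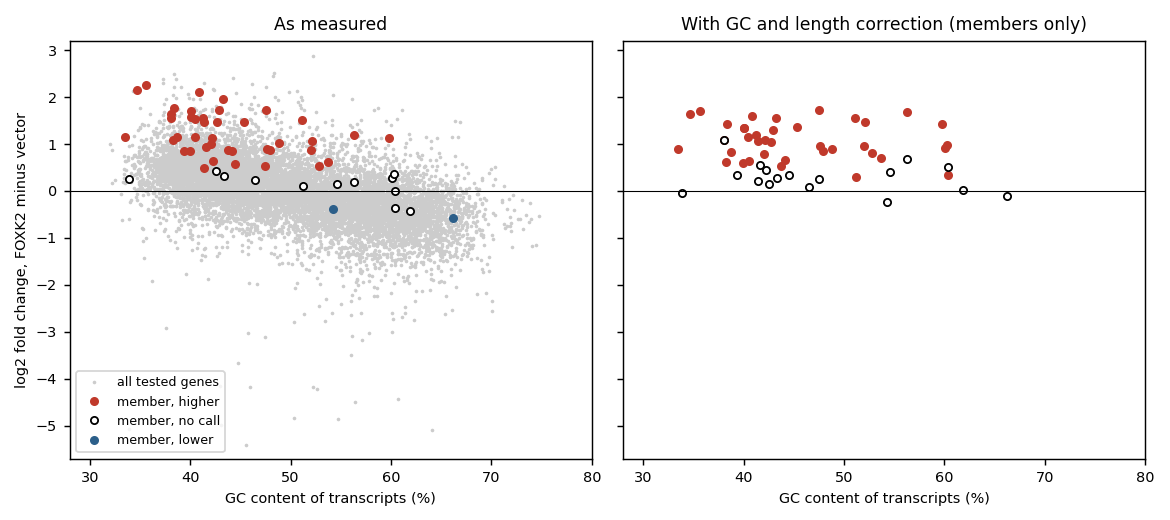
Log2 fold change (FOXK2 minus vector) against GC content of the transcripts (%), as measured for all tested genes (small grey points) and members (left), and for the members with the GC and length correction (right). Filled red points are members called higher, blue points members called lower and open points members with no call. Many members lie in the upper part of the downward cloud on the left, and others lie within it. On the right none is called lower. CENPBD1 and CENPB stand lowest, at -0.24 and -0.10, and CENPQ, MAD1L1 and BUB3 stand at -0.052, 0.019 and 0.075.

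Genes that work with the kinetochore but are not in the set were also mostly higher in FOXK2 cells. Of 37 such partner genes, chosen with earlier results of these data known, all were tested, 26 were called higher and none lower, with a median log2 fold change of 0.79. All tested genes were called higher in 17.6% and lower in 18.7% of cases. Under the GC and length correction 24 partner genes were called higher, against 15.9% of all tested genes. NEK2, a mitotic kinase, averaged 23.8 ± 5.26 FPKM in FOXK2 cells and 4.52 ± 0.531 FPKM in vector cells (log2 fold change 2.15). SPAG5 (astrin, a microtubule-binding partner of SKAP) and PLK1 (polo-like kinase) rose with log2 fold changes of 1.72 and 1.43. KIF2C, a microtubule-depolymerizing kinesin at centromeres, TRIP13, which remodels MAD2, and CDC20, the checkpoint's target, rose with log2 fold changes of 1.36, 1.23 and 1.01. RANGAP1, which sits at kinetochores in mitosis, averaged 114 ± 27.4 FPKM in FOXK2 cells and 126 ± 4.82 FPKM in vector cells and was not called (-0.17, limma adjusted p = 0.456).

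Of 12 genes that encode known regulators of mitotic promoters, 5 were called higher and 1 lower, against 17.6% and 18.7% of all tested genes, and with the correction for GC content and length 3 were higher and none lower, against 15.9% and 14.3%. FOXM1, a forkhead factor that activates G2 and mitosis genes, was at 37.0, 42.7 and 37.6 FPKM in FOXK2 libraries, against 14.7, 16.0 and 18.5 FPKM in vector libraries. The groups were clearly apart (limma log2 fold change 1.21, SE 0.14, adjusted p = 0.00122). LIN54, the MuvB subunit that contacts the CHR, and the MuvB subunits LIN9 and LIN52 rose with log2 fold changes of 0.97, 0.72 and 0.46, and TFDP1, the dimer partner of E2F proteins, with 0.62. The MuvB subunit LIN37 (0.16, limma adjusted p = 0.706) and E2F1 (-0.40, limma adjusted p = 0.146) had overlapping groups and were not called. E2F4, a repressive E2F of the DREAM complex, averaged 10.3 ± 0.308 FPKM in FOXK2 cells and 17.7 ± 4.51 FPKM in vector cells (log2 fold change -0.70, limma adjusted p = 0.0226). Under the GC and length correction the calls of E2F4 (-0.30, limma adjusted p = 0.287), LIN9 (0.25), LIN52 (0.12) and TFDP1 (0.44) were lost, and MYBL2, the MYB subunit that joins MuvB, was called higher (0.86, against 0.48 without it, limma adjusted p = 0.00301 and 0.0847). NFYA, NFYB and NFYC, the subunits of NF-Y, were not called (0.20, 0.30 and 0.10).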

How the data were processed

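Total RNA of 3 FOXK2-overexpressing and 3 vector CAL-62 cultures was sequenced with a stranded, randomly primed kit, per the labels' protocols. Per the submitters' processing notes, cutadapt, HISAT2 2.1.0 and StringTie were used on build hg19. The sources used here do not say whether strand was used in assigning reads. The values deposited by the authors were taken as FPKM because StringTie is named. The header states no unit. The table gives no read counts, whole steps were not found (5.0% of 200 low values within 0.02), and the depth is unknown, so precision rests on the replicate spread. Every transcript reached a mean of 0.5 in a group, and a 0 is reported only as listed.

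Of 31009 transcripts, 30893 were matched to GENCODE 29 symbols (116, with 0.211% of the signal, were not) and summed to 11359 genes. GENCODE 29 is on another build, so it gave names, GC content and length only. Gene sums and transcripts with a mean of at least 1 FPKM were tested with limma 3.58.1 in R 4.3.3 on log2(FPKM + 1), two-sided, with an intensity trend and Benjamini-Hochberg adjustment over all features tested, at 0.05. SEs are moderated and intervals are 95%. The members, lists and rule for naming were chosen with earlier results of these data known. By role, the genes of smallest and largest p and of highest mean, the genes called lower and the 6 largest rises are given by library. KNL1, SPC24, CENPM, CENPC, CENPVL3 and FOXM1 were added after their values were seen. Transcripts are named for the 6 most abundant members of which only some transcripts were called.

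Alternatives were pseudocounts of 0.1 and 0.5, no filter, a minimum mean of 5 FPKM, quantile and median ratio scaling, no trend, the replicate number as a block, a GC and length correction (natural splines, 4 degrees of freedom) with and without the block, the most abundant transcript, and leaving out each library. The fit was tested on simulated data. Promoter windows came from RefSeq (GRCh38.p14), matched by symbol. Where a gene had several, the counts used 1 window a gene.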

Additional observations from a re-analysis of the deposited data

How the results depend on the processing

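The number of members called higher, 41, stayed within 33 to 42 under every alternative. The share of all tested genes called higher, 17.6% in the main fit, ran from 8.25% without FOXK2 replicate 3 to 23% without FOXK2 replicate 2. Under the GC and length correction the 2 falls became 0, with the most abundant transcript 1, without a filter on the mean 3, and 0 to 4 when one library was left out. Of all tested genes, 14.3% were called lower under that correction. The share of all tested genes called in either direction was 21.5% with the most abundant transcript and 33.9% without a filter. It was 18.9 to 46.3% when one library was left out. The 33 transcripts called higher became 2 to 30, and the 0 called lower became 0 to 1, when one library was left out. Of all tested transcripts, 0.306 to 4.26% were then called higher and 0.823 to 10.2% in either direction. Of 43 called members, 28 kept their call under every alternative that tested them, 2 of which, CENPA and KNTC1, were not tested at a minimum mean of 5 FPKM. The same count was not made over all tested genes, so it has no background share. Sign changes were seen for 5 uncalled members. With the correction, with or without the block, CENPQ stood at -0.052, CENPX at 0.33, CENPT at 0.51 and MAD1L1 at 0.019. Leaving out one library moved CENPT between -0.24 and 0.25 and PMF1 between -0.089 and 0.53. The cause was not tested.

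Samples of the same replicate number did not deviate together (correlations of 0.126, -0.168 and -0.0564 for numbers 1, 2 and 3). Correlations between samples of different numbers ran from -0.284 to 0.302. With 3 libraries a group these values cannot show whether the numbers pair the samples. With the replicate number as a block, 39 members were called higher and 1 lower. The rises of CENPP and NSL1 and the fall of CENPBD1 lost their calls in that fit (limma adjusted p = 0.0642, 0.0712 and 0.105). Of all tested genes, 13.7% were then called higher and 28.9% in either direction. In that fit 0 member transcripts were called higher, against 0.0235% of all tested transcripts. With the block and the GC and length correction, 35 members were called higher and 0 lower. Of all tested genes, 11.1% were then called higher and 20.6% in either direction. The unknown depth, the 3 libraries a group and the dependence of the fold changes on GC content limit what can be said of single members near the threshold.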
